A study of Bos taurus with 8 samples.

Results

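The genes described here decide what a cell does with pyruvate, the product of glycolysis. They are LDHA and LDHB, SLC16A1 and SLC16A3, PDK1, PDK2 and PDK3, PDHA1, and MPC1 and MPC2, which were taken by name from the count table as 10 of the 32640 genes listed, and all 10 passed the filter on low counts. Their transcripts were measured by RNA sequencing in bovine embryonic stem cells (bESCs) of 4 female (XX) lines, A, C, D and E, derived from early or full blastocysts on mouse embryonic fibroblasts (MEF, a feeder layer that was irradiated) in NBFR medium, which holds FGF2 and the WNT inhibitor IWR-1. Each line was adapted to 5% O2 over 5 passages on MEF, which gave the MEF group (4 libraries, passage 15 to 17), and was then moved to vitronectin (VTN) in the same oxygen, which gave the feeder-free group (4 libraries, passage 20 to 22). The methods add Activin A to the medium for feeder-free culture, whereas the sample titles name the same medium for both groups. Feeders, matrix, passage and, by the methods, Activin A changed together between the groups and cannot be told apart. The paper mentions sequencing batches and applied no batch correction. Whether batch differed between the groups was not analysed here. Each line gave 1 library per group, so the libraries of a group are separate lines and the spread between them is the spread between lines. Cells in high oxygen were not analysed here, so no value below measures an effect of oxygen. The methods describe a subtraction of feeder reads, measured in feeders alone, from the MEF libraries, and the sources used here do not say whether the counts are from before or after that step, which bears on every MEF level below.

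Pyruvate stands at a branch point. In the cytosol lactate dehydrogenase, a tetramer of LDHA and LDHB subunits, interconverts pyruvate and lactate with NADH and NAD+, and the monocarboxylate transporters MCT1 (SLC16A1) and MCT4 (SLC16A3) carry lactate and pyruvate across the cell membrane. Alternatively, pyruvate enters the mitochondria through the carrier formed by MPC1 and MPC2 and is turned into acetyl-CoA by the pyruvate dehydrogenase complex, whose catalytic E1 alpha subunit is PDHA1. The kinases PDK1 to PDK4 phosphorylate that subunit and switch the complex off. LDHA, SLC16A3 and PDK1 are well-known targets of hypoxia-inducible factor 1, and primed pluripotent stem cells are known for a high rate of glycolysis.

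The libraries held 44268717 to 54296425 counts on MEF and 49671478 to 102351560 in feeder-free conditions, where line D was the deepest. Of 10 markers of pluripotent cells 9 were rows of the table. Their summed level was 5466 to 6060 CPM on MEF and 4691 to 5323 CPM in feeder-free conditions, without overlap. POU5F1 was at 1725 to 2341 CPM over all 8 libraries. SOX2, SALL4, LIN28A and LIN28B were lower in every feeder-free library than in every MEF library, while the others overlapped. Only OTX2 was called with the pairing, as lower (log2 fold change -0.66, adjusted P-value 0.00495, edgeR quasi-likelihood). The summed level of 20 fibroblast markers was 1038 to 1274 CPM on MEF and 738 to 1847 CPM in feeder-free conditions. TWIST2 and FAP were at 0 in every feeder-free library, but held only 2 to 32 and 0 to 6 reads on MEF. DPT was at 0 in every MEF library and held 6 and 2 reads in feeder-free lines C and E. With the pairing 2 fibroblast markers were called lower and 2 higher. The summed level of 8 trophoblast markers was 22.1 to 38.2 CPM on MEF and 41.6 to 114 CPM in feeder-free conditions, without overlap, mostly from KRT7. With the pairing KRT7 was called higher (log2 fold change 1.46) and GATA2 was called lower (-1.45). CDX2, IFNT2 and PAG2 were at 0 throughout. The 8 neural and mesoderm markers summed to 28.5 to 183 CPM and 96.9 to 343 CPM, and EOMES was called higher with the pairing (log2 fold change 1.61). The 7 hypoblast and endoderm markers summed to 4.99 to 15.3 CPM and 3.99 to 7.11 CPM, with AFP at 0. The part of these cell types in the results below was not tested. In such bulk libraries, fewer cells of a type and less RNA per cell cannot be told apart. Levels are given as CPM, the count divided by the library total after TMM scaling and put on a common scale, which compare 1 gene between libraries and not different genes, since the values are not divided by transcript length.

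Without the pairing of lines, 0 of the 10 genes were called higher and 0 lower in bESCs on VTN than on MEF. A call needed a fold change of 1.5 or more and a P-value by edgeR's quasi-likelihood test, adjusted over all genes, that was under 0.05. Over all 15744 genes tested, 1.73% were called, with 0.724% higher and 1.00% lower. An unadjusted P-value under 0.05 was found for 2 of the 10 genes, PDHA1 and MPC1 (3 by DESeq2 and 3 by limma-voom), and for 21.6% of all genes. With the line as a paired term (replicate block), 1 gene, PDK1, was called lower and 0 were called higher, against 4.53% and 5.52% of all genes, and 3 genes, PDK1, PDHA1 and MPC1, had an unadjusted paired P-value under 0.05, against 32.2% of all genes. The median log2 fold change of the 10 genes was -0.11 in the unpaired fit, with 6 below 0 and 4 above, and that of all genes was 0.01. LDHA, SLC16A1 and SLC16A3 differed between lines (3 of 10 genes, against 11.8% of all genes). The test, a quasi-likelihood test of the line terms, was added after the values were seen. Of these, only LDHA kept the call when any 1 library was left out.

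**Figure D1:**
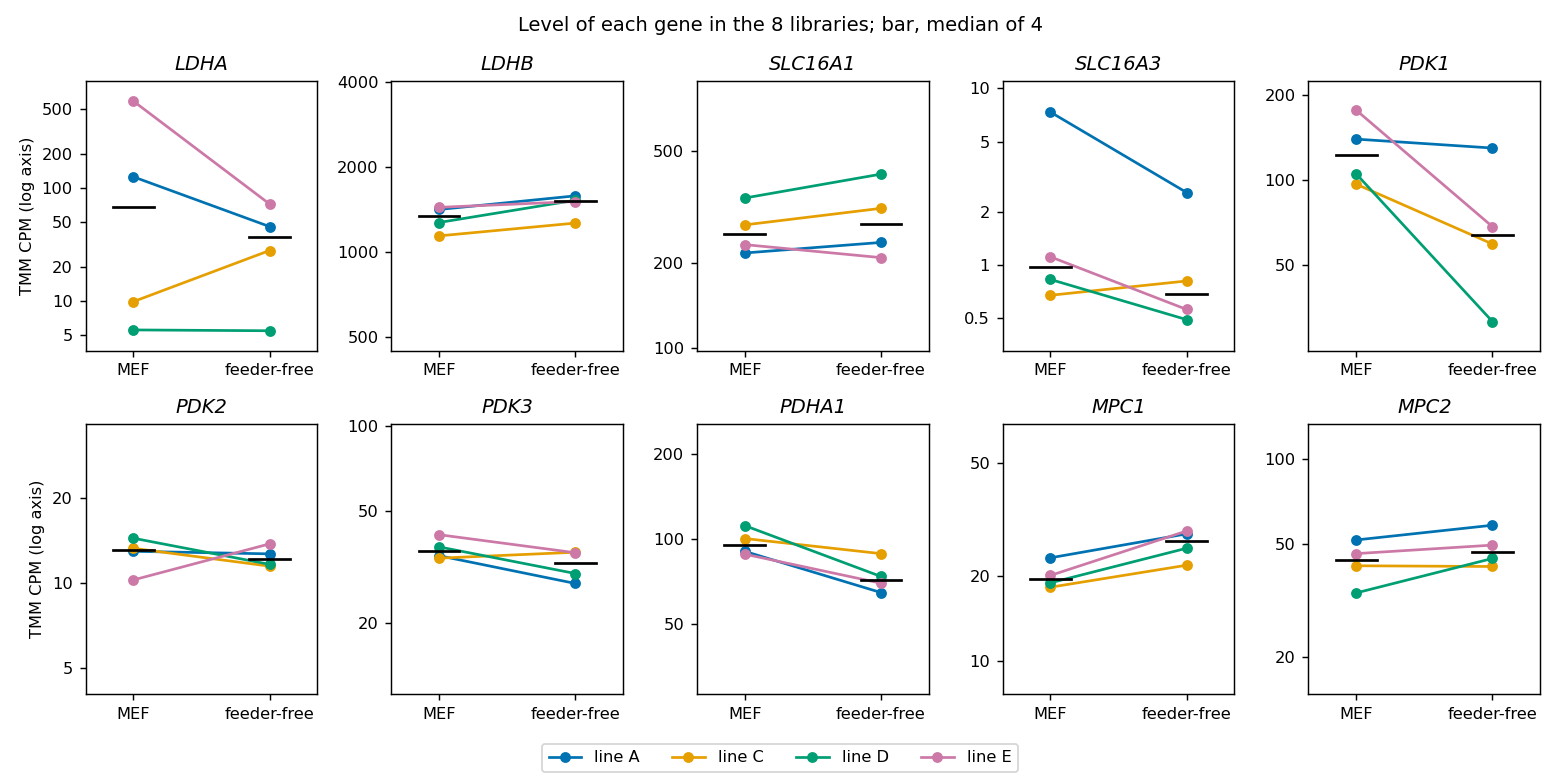
Level of each of the 10 genes (TMM CPM, log axis, with its own span in each panel) in the MEF and feeder-free library of lines A, C, D and E, joined by line, with a black bar at the median of 4 libraries. LDHA ran from 5.57 to 583 CPM between lines on MEF, PDK1 was lower in feeder-free conditions in all 4 lines, and LDHB stayed between 1139 and 1578 CPM.

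LDHA, the subunit that predominates in muscle and in many glycolytic cells, was the most variable of the 10 genes. Its gene lies at chr29:26290889-26302946 in ARS-UCD2.0. On MEF it measured 125 CPM in line A, 9.90 in line C, 5.57 in line D and 583 in line E. In feeder-free conditions it measured 45.5 CPM in line A, 27.97 in line C, 5.48 in line D and 72.05 in line E. The order of the lines was the same in both conditions, with E highest, then A, C and D, and the groups overlapped. The highest line exceeded the lowest 105-fold on MEF, or 22.5-fold among the other 3 lines without line E, and 13.1-fold in feeder-free conditions. Of all genes tested, 0.407% had a range at least as wide on MEF and 2.72% in feeder-free conditions. These levels rested on 270 to 25758 reads per library, so counting error was small beside the difference between lines. The lines differed with an adjusted P-value of 0.0136 by the quasi-likelihood test of the line terms, and the value lay between 0.00322 and 0.0319 when any one library was left out.

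Between conditions, LDHA had no common direction. Its log2 ratio of feeder-free to MEF was -1.46 in line A, 1.495 in line C, -0.02 in line D and -3.02 in line E. The mean was 181 ± 274 CPM on MEF and 37.8 ± 28.1 CPM in feeder-free conditions (SD, n = 4 each). The fitted log2 fold change was -2.26 ± 1.30 (SE, 95% interval -5.18 to 0.65, adjusted P-value 0.356, edgeR quasi-likelihood). With line as a paired term it was -0.79 ± 0.60 (95% interval -2.14 to 0.56, adjusted P-value 0.401). Without the MEF library of line E the unpaired value was -0.31 (adjusted P-value 0.914), so that single library set most of its size.

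LDHB, the subunit that predominates in heart and other oxidative tissues, was even across the 8 libraries. On MEF it measured 1412 CPM in line A, 1139 in line C, 1270 in line D and 1437 in line E. In feeder-free conditions the levels were 1578, 1264, 1522 and 1507 CPM in the same order. It was higher in feeder-free conditions in all 4 lines, but the groups overlapped and the log2 fold change of 0.16 ± 0.14 (SE, 95% interval -0.15 to 0.47) had an adjusted P-value of 0.553. The gene lies at chr5:88544523-88562770.

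Because LDHB was even, the share of LDHA in the reads of both subunits followed LDHA. On MEF that share was 8.14% in line A, 0.862% in line C, 0.437% in line D and 28.9% in line E. In feeder-free conditions it was 2.80%, 2.16%, 0.359% and 4.56%. The exact 95% binomial interval of the lowest share ran from 0.330% to 0.390% and that of the highest from 28.6% to 29.2%, which covers counting error only. The log2 ratio of LDHA to LDHB differed by -0.91 between the condition means, with 3 lines lower and line C higher, and by 0.28 in the opposite direction without the MEF library of line E.

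**Figure D2:**
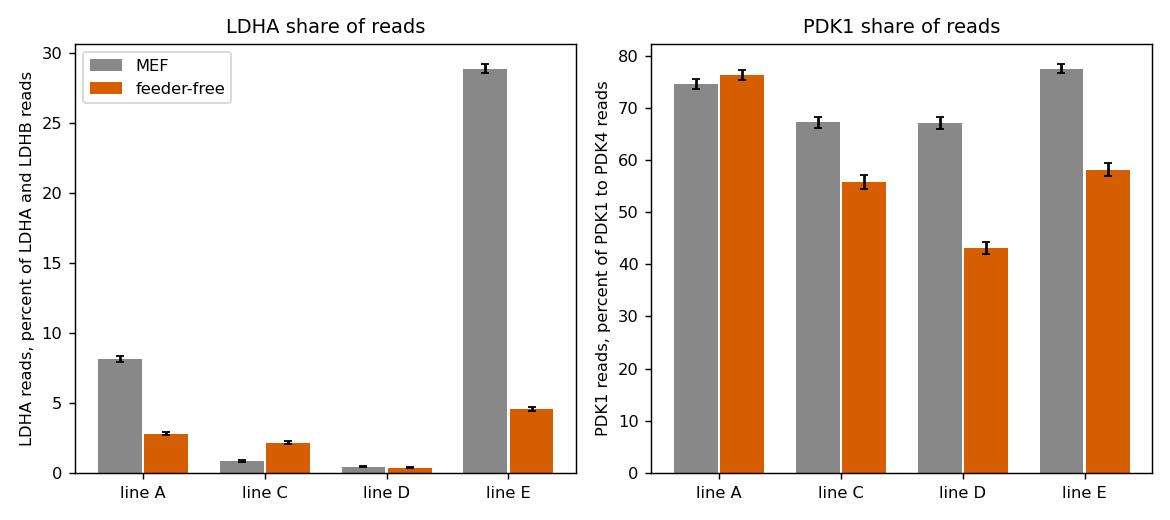
Reads of LDHA as a percent of LDHA and LDHB reads (left) and reads of PDK1 as a percent of PDK1 to PDK4 reads (right) in each line, with grey bars for MEF, orange bars for feeder-free conditions and error bars for the exact 95% binomial interval. LDHA reached 28.9% in line E on MEF and stayed at or under 8.14% in the other libraries, while the PDK1 share was 43.2% to 58.2% in feeder-free lines C, D and E and 76.3% in line A.

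Of the tested transcripts that flank LDHA, those of UEVLD, TSG101, GTF2H1 and HPS5 did not share its spread. Within 100 kb of the gene, 5 of 10 listed genes could be tested (UEVLD, TSG101, LDHC, GTF2H1 and HPS5, a window set after the LDHA values were seen). On MEF the highest line exceeded the lowest 1.32-fold for UEVLD, 1.42-fold for TSG101, 1.24-fold for GTF2H1 and 1.10-fold for HPS5. LDHC, the testis form of the enzyme, had a range of 7.48-fold at levels of 0.13 to 0.95 CPM. These levels rested on 7 to 42 reads per library, too few to tell whether LDHC shared the spread of LDHA. Line E was highest on MEF for LDHC, UEVLD, TSG101 and GTF2H1, as for LDHA, but not for HPS5. For each of the 5 the test of the line terms gave an adjusted P-value between 0.460 and 0.799. LDHA overlaps the annotated LOC132344183, and since the counting is not stated to use strand, reads of overlapping genes may not be separable. Mammalian genomes also carry processed copies of LDHA, and reads that match several places equally well were dropped by the mapping quality filter of the authors.

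**Figure D3:**
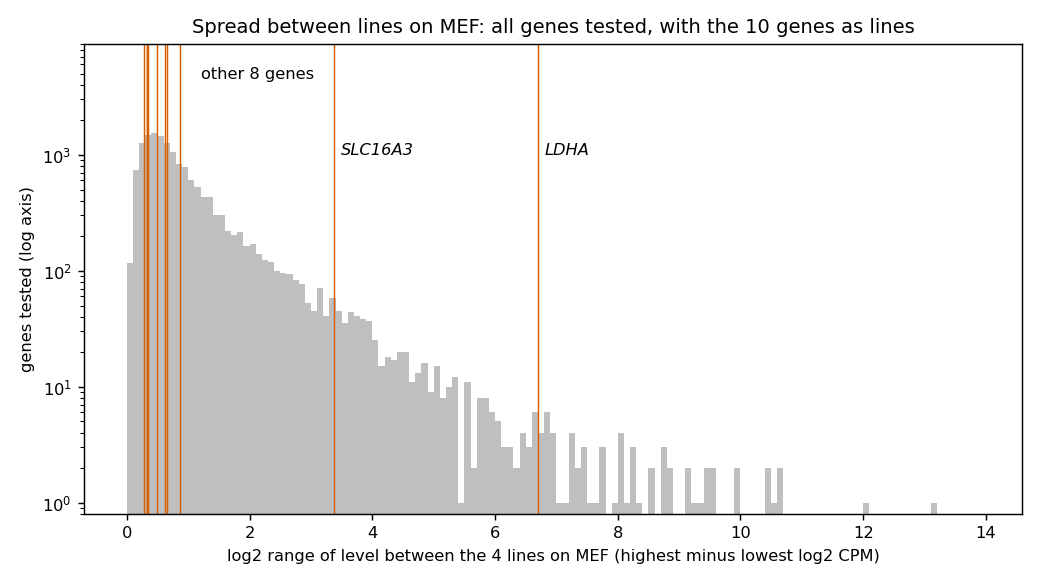
Number of tested genes (log axis) by the log2 range of their level between the 4 lines on MEF, with orange vertical lines at the 10 genes. LDHA, with a 105-fold range, lies in the far tail and SLC16A3, with a 10.9-fold range, lies beyond most genes, while the other 8 genes had ranges of 1.21-fold to 1.83-fold.

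Fibroblast markers, read on MEF because feeder RNA could be present there, had no single order across the lines. Of 17 tested, 3 (THY1, PDGFRA and LOX) were higher in lines A and E than in C and D, as LDHA was, 5 (COL1A2, POSTN, PDGFRB, PRRX1 and MMP2) were lower in A and E, and 9 had neither order. LOX, a collagen crosslinking enzyme, measured 3.697 CPM in line A, 1.56 in line C, 1.26 in line D and 6.70 in line E. COL1A2, a collagen of fibroblasts, measured 0.91, 4.59, 4.65 and 0.68 CPM in the same order. With the pairing COL1A2 and PRRX1 were called lower in feeder-free conditions and COL3A1 and POSTN higher. The pure feeder cells were not analysed here, and how much of any of the 10 genes came from feeder RNA was not tested.

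MCT1 and MCT4 differed in how far the lines stood apart. SLC16A1 (chr3:30380839-30414648), the widely expressed transporter that moves lactate in either direction, measured 218 CPM in line A, 274 in line C, 341 in line D and 233 in line E on MEF. In feeder-free conditions it measured 237, 313, 414 and 210 CPM. Lines C and D lay above A and E in both conditions, which is the reverse of their place for LDHA. The lines differed with an adjusted P-value of 0.0246 by the test of the line terms. That call was lost, with adjusted P-values of 0.0513 to 0.19, when any 1 of 5 libraries was left out, namely lines C and D on MEF and lines A, C and D on VTN. Between conditions the log2 fold change was 0.14 ± 0.23 (SE, 95% interval -0.38 to 0.66, adjusted P-value 0.785), and without the feeder-free library of line D it was -0.07. SLC16A1 overlaps the annotated LOC107132296.

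SLC16A3 (chr19:50634317-50646351), the low-affinity exporter typical of glycolytic cells, was near the lower end of detection in most libraries. It measured 7.35 CPM in line A, 0.67 in line C, 0.83 in line D and 1.11 in line E on MEF, and 2.57, 0.81, 0.49 and 0.56 CPM in feeder-free conditions. Line A was the highest in both conditions, and without it the range on MEF was 1.65-fold in place of 10.9-fold. It held 306 and 128 reads, and the other libraries held 29 to 50 reads. The lines differed with an adjusted P-value of 0.00993, and without the MEF library of line A this was 0.142. Between conditions the log2 fold change was -1.17 ± 0.87 (SE, 95% interval -3.13 to 0.79, adjusted P-value 0.486), and without the MEF library of line A it was 0.34. SLC16A3 overlaps CSNK1D. It made up 0.118% to 3.26% of the reads of both transporters, and the log2 ratio of SLC16A1 to SLC16A3 was higher by 0.84 in feeder-free conditions, but by -0.01 without the MEF library of line A.

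PDK1, a kinase isoform induced by hypoxia-inducible factor, was lower in feeder-free conditions in all 4 lines. It lies at chr2:24026650-24068921. On MEF it measured 140 CPM in line A, 96.9 in line C, 105 in line D and 177 in line E. In feeder-free conditions it measured 130, 59.5, 31.6 and 68.5 CPM. The MEF libraries lay above 3 of the 4 feeder-free libraries, while line A on VTN lay among them. The log2 ratio was -0.10 in line A, -0.70 in line C, -1.74 in line D and -1.37 in line E.

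The call for PDK1 depended on the pairing. The mean was 130 ± 36.6 CPM on MEF and 72.4 ± 41.5 CPM in feeder-free conditions (SD, n = 4 each), and the unpaired log2 fold change was -0.84 ± 0.38 (SE, 95% interval -1.70 to 0.01, adjusted P-value 0.236, edgeR quasi-likelihood). With line as a paired term (replicate block) it was -0.98 ± 0.23 (95% interval -1.49 to -0.47) with an adjusted P-value of 0.0212. When both libraries of a line were left out, an analysis added after the values were seen, the paired call was kept without line A and lost without line C (-1.06, adjusted P-value 0.0553), line D (-0.73, adjusted P-value 0.0743) or line E (-0.83, adjusted P-value 0.0830). How many of all genes were called in these smaller fits was not counted. The test of the line terms gave PDK1 an adjusted P-value of 0.0805, which was 0.0216 without the MEF library of line A, 0.0300 without that of line D and 0.000656 with no filter on low counts.

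**Figure D4:**
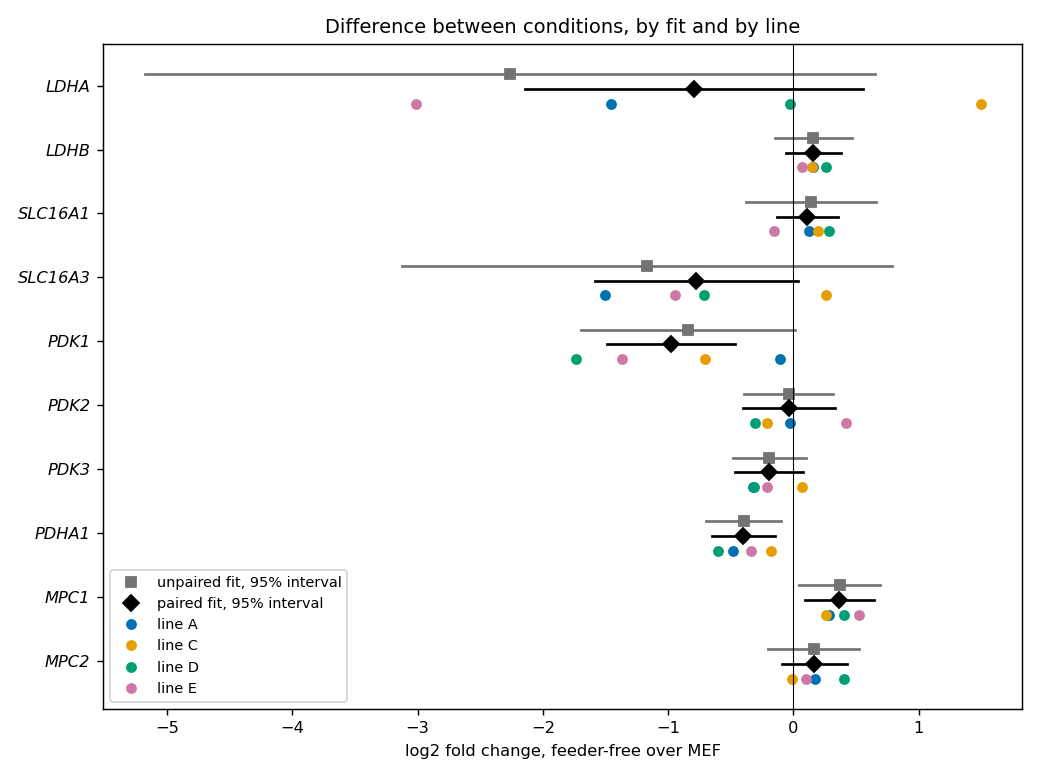
Log2 fold change of feeder-free over MEF for each of the 10 genes: grey squares for the unpaired fit and black diamonds for the fit with line as a paired term, each with its 95% interval, and coloured circles for the ratio within each line. The paired interval of PDK1 lies below 0 at -1.49 to -0.47, and the 4 lines of LDHA spread from -3.02 to 1.495.

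The other kinase isoforms moved little. PDK2 (chr19:36544866-36561135), a widely expressed isoform, measured 13.0, 13.3, 14.5 and 10.3 CPM in lines A, C, D and E on MEF and 12.7, 11.5, 11.7 and 13.8 CPM in feeder-free conditions, and its log2 fold change was -0.04 ± 0.16 (SE, 95% interval -0.39 to 0.31, adjusted P-value 0.926). PDK3 (chrX:118815748-118898248) measured 34.7, 34.0, 37.2 and 41.1 CPM on MEF and 27.6, 35.7, 29.98 and 35.5 CPM in feeder-free conditions, and its log2 fold change was -0.19 ± 0.13 (SE, 95% interval -0.48 to 0.10, adjusted P-value 0.442). For both isoforms the groups overlapped. PDK4, the isoform known to respond to fasting and fatty acids, had 0 counts in all 8 libraries, which allows at most 0.0293 to 0.072 CPM per library, counting 3 reads as the limit and counting error only.

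Within the kinase family the makeup of the reads therefore moved with PDK1. Its share of PDK1 to PDK4 reads was 74.6% in line A, 67.2% in line C, 67.1% in line D and 77.5% in line E on MEF. In feeder-free conditions it was 76.3%, 55.8%, 43.2% and 58.2%, lower in lines C, D and E and not in line A. The PDK3 share was 17.996% to 23.7% on MEF and was 16.2% in line A, 33.4% in line C, 40.9% in line D and 30.1% in line E in feeder-free conditions. The log2 ratio of PDK1 to PDK2 was lower by 0.95 in the feeder-free mean and lower in all 4 lines, whereas that of PDK1 to PDK3 was lower by 0.78 and was higher in line A. The groups overlapped for both ratios, and no test was made of them.

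PDHA1 (chrX:123763235-123786122), the substrate of these kinases, was also lower in feeder-free conditions in all 4 lines. It measured 90.4 CPM in line A, 100 in line C, 111 in line D and 88.3 in line E on MEF, and 64.6, 88.7, 73.6 and 69.7 CPM in feeder-free conditions. The groups met only through the feeder-free library of line C, at 88.7 CPM, which lay just above the MEF library of line E. The mean was 97.6 ± 10.6 CPM on MEF and 74.2 ± 10.4 CPM in feeder-free conditions (SD, n = 4 each), with a log2 fold change of -0.40 ± 0.13 (SE, 95% interval -0.70 to -0.10, adjusted P-value 0.126). With the pairing the log2 fold change was -0.40 with an adjusted P-value of 0.0399, but its size lay under the 1.5-fold threshold. By the paired test with no fold threshold, a rule added after the values were seen, 2 of the 10 genes, PDK1 and PDHA1, were lower, against 8.12% of all genes, and 0 were higher, against 7.67%. PDHA1 overlaps MAP3K15.

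The carrier subunits stood on the other side of 0. MPC1 (chr9:101357082-101370413) measured 23.1, 18.2, 18.9 and 20.0 CPM in lines A, C, D and E on MEF and 28.1, 21.8, 25.0 and 28.8 CPM in feeder-free conditions. It was higher in all 4 lines, although the feeder-free library of line C lay below the MEF library of line A. The log2 fold change was 0.37 ± 0.14 (SE, 95% interval 0.05 to 0.69, adjusted P-value 0.174), and with the pairing 0.37 with an adjusted P-value of 0.0704, so it was not called in either fit.

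MPC2 (chr3:752398-783103), the obligate partner of MPC1 in the carrier, measured 51.9, 42.0, 33.7 and 46.4 CPM on MEF and 58.5, 41.8, 44.6 and 49.7 CPM in feeder-free conditions. Its groups overlapped and the log2 fold change was 0.16 ± 0.16 (SE, 95% interval -0.20 to 0.52, adjusted P-value 0.619). MPC1 gave 30.2% to 35.9% of the reads of both carrier genes on MEF and 32.5% to 36.7% in feeder-free conditions. MPC2 overlaps ADCY10.

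A direction shared by every line was counted against the background. PDK1 and PDHA1 were lower in all 4 lines (2 of 10 genes, against 20.7% of all genes), and LDHB and MPC1 were higher in all 4 (2 of 10, against 20.2%). For 0 of the 10 genes did the groups stand apart without overlap, against 8.36% of all genes with feeder-free lower and 6.21% with feeder-free higher.

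The remaining genes of pyruvate, lactate and NADH handling were described from 4 lists of 45 further genes, of which 35 were tested. Without the pairing 1 of the 35 was called higher and 0 lower, and with it 2 were higher and 0 lower, against 0.724% of all genes called higher without and 5.52% with the pairing. Their median log2 fold change was 0.11, with 23 above 0 and 12 below, against 7960 above and 7784 below of all genes. The genes called were SLC16A7 in both fits and SLC25A12 in the paired fit.

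SLC16A7 encodes MCT2, a high-affinity transporter known for taking up lactate and pyruvate, and was the only gene of these lists called without the pairing. It measured 2.26, 2.60, 4.85 and 2.54 CPM in lines A, C, D and E on MEF, and 8.01, 8.78, 21.1 and 9.47 CPM in feeder-free conditions. Every feeder-free library lay above every MEF library. The log2 fold change was 1.95 ± 0.39 (SE, 95% interval 1.08 to 2.82, adjusted P-value 0.0426), and 1.90 with an adjusted P-value of 0.000551 with the pairing. The unpaired call was lost in 7 of 8 cases when 1 library was left out, all but the feeder-free library of line A, with log2 fold changes of 1.51 to 2.27 and adjusted P-values of 0.0706 to 0.116 in those cases. Only 0 to 6 of all genes were called in those cases, so the loss was not particular to SLC16A7. SLC16A7 overlaps the annotated LOC512953. BSG, the chaperone that brings MCT1 and MCT4 to the membrane, was at 488 ± 59.7 CPM on MEF and 499 ± 101.5 CPM in feeder-free conditions (SD, n = 4 each), with a log2 fold change of 0.03 and an adjusted P-value of 0.941. EMB, the other chaperone listed and named after its values were seen, was at 31.7 ± 12.1 and 50.3 ± 5.40 CPM. Its groups did not overlap. The log2 fold change was 0.67 (adjusted P-value 0.182), or 0.74 with the pairing (adjusted P-value 0.0604), so EMB was not called.

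In the pyruvate dehydrogenase complex and its regulators, 0 of the 10 tested genes beside the 4 already described were called in either fit, and 8 lay above 0. PDHB, the E1 beta subunit that pairs with PDHA1, measured 61.9, 65.2, 66.2 and 61.3 CPM on MEF and 73.3, 79.3, 112 and 82.0 CPM in feeder-free conditions. Its groups did not overlap, and the log2 fold change was 0.44 ± 0.14 (SE, adjusted P-value 0.113), or 0.42 with an adjusted P-value of 0.0413 with the pairing, which was under the 1.5-fold threshold. The log2 ratio of PDHA1 to PDHB, chosen after the values were seen and given with no test, was 0.61 ± 0.10 on MEF and -0.21 ± 0.31 in feeder-free conditions (SD, n = 4 each), and fell from 0.53 to 0.75 on MEF to -0.60 to 0.16 without overlap. DLAT, the E2 core of the complex, was at 63.0 ± 5.21 and 66.1 ± 8.21 CPM (log2 fold change 0.07, adjusted P-value 0.801).

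**Figure D5:**
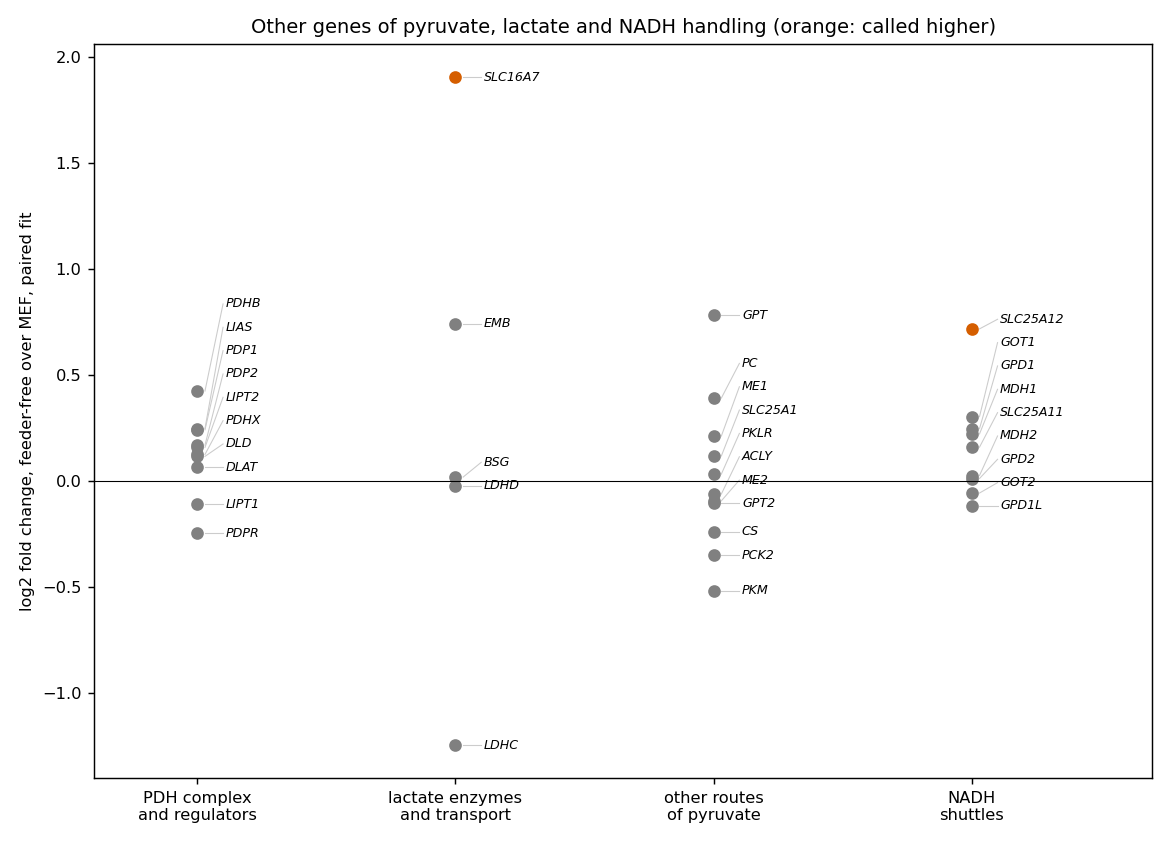
Log2 fold change of feeder-free over MEF in the paired fit for the 35 tested genes of 4 lists, beside the 10 genes, each point being a gene and orange marking a gene called higher. SLC16A7 stands alone at 1.90, and SLC25A12, the other gene called, lies at 0.72. GPT at 0.78, EMB at 0.74 and LDHC at -1.24 were not called, and most other points lie within 0.5 of 0.

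Of the other routes of pyruvate, 0 of 11 tested genes beside the carrier genes were called in either fit. PKM, which makes pyruvate in the last step of glycolysis and was named after its values were seen, measured 4750 to 4916 CPM on MEF and 3075 to 3670 CPM in feeder-free conditions. Its groups stood apart, and its log2 fold change of -0.51 ± 0.12 had an adjusted P-value of 0.0613 without and 0.0107 with the pairing, again under the 1.5-fold threshold. PC, which carboxylates pyruvate to oxaloacetate, had a log2 fold change of 0.44 ± 0.23 (SE, adjusted P-value 0.322), and ME1, which makes pyruvate from malate, one of 0.22 ± 0.18 (SE, adjusted P-value 0.534).

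The NADH shuttles move reducing equivalents from cytosolic NADH into mitochondria as an alternative to lactate formation. Of their 9 tested genes 7 lay above 0 in the unpaired fit, against 7960 of all 15744 genes tested. SLC25A12, the aspartate and glutamate carrier of the malate-aspartate shuttle, measured 6.96, 9.12, 7.62 and 10.7 CPM in lines A, C, D and E on MEF and 13.2, 12.9, 16.8 and 13.3 CPM in feeder-free conditions. The groups did not overlap, and the log2 fold change was 0.71 ± 0.19 (SE, adjusted P-value 0.0740), or 0.72 with an adjusted P-value of 0.0264 with the pairing. GOT1 and MDH1, cytosolic enzymes of that shuttle, had log2 fold changes of 0.31 ± 0.25 (SE, adjusted P-value 0.517) and 0.22 ± 0.12 (SE, adjusted P-value 0.328). GOT1, PC and SLC16A7 were the 3 of the 35 genes that differed between lines, against 11.8% of all genes.

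The genes most like LDHA over the 8 libraries were picked by Pearson's correlation of log2 CPM, given as a description since each line supplies 2 libraries. They were LOC104969525 (r = 0.981), TCFL5 (0.973), EPHA6 (0.969), TEX264 (0.966) and LOC787812 (0.964). LOC104969525, EPHA6 and LOC787812 were at most 4.87, 1.63 and 4.44 CPM in any library, so their correlations rest on few reads. TEX264 ran only from 16.1 to 27.9 CPM on MEF and TCFL5 from 2.87 to 13.8 CPM, each with line E highest, so none of these 5 approached the 105-fold range of LDHA at a comparable number of reads.

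The genes most like PDK1 were PLAG1 (r = 0.988), UEVLD (0.980), RFTN2 (0.979), NAA16 (0.978) and DGKE (0.977). PLAG1, a zinc finger transcription factor known for its effect on stature in cattle, measured 19.2, 12.8, 14.7 and 21.1 CPM on MEF and 13.98, 7.16, 4.12 and 8.33 CPM in feeder-free conditions, so that, as for PDK1, line D was lowest and line A highest among the feeder-free libraries. UEVLD is a neighbour of LDHA and not of PDK1. Among the 10 genes themselves, PDHA1 and MPC1 ran most strongly in opposite directions (r = -0.933 over 8 libraries). Next were PDHA1 with LDHB (-0.839), PDHA1 with MPC2 (-0.80) and LDHA with SLC16A1 (-0.790). The strongest positive pair was LDHB and MPC1 (0.843). These values pool both conditions, so a difference between the conditions enters them.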

How the data were processed

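The authors trimmed reads with Trimmomatic, aligned them to ARS-UCD2.0 with STAR, removed optical duplicates (Picard) and alignments with a mapping quality under 30 (samtools), and deposited raw counts per gene from featureCounts (Subread 1.6.2 per the labels). Strand was not given in the sources used here. The study also describes subtracting reads of a pure MEF sample, which was not analysed here, and whether the deposited counts precede that step is not given in the sources used here. The methods name RNeasy kits, the sample records Trizol.

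Counts were used as deposited, and 0 columns were left unused. Of 32640 genes, 3 had no values, and 30268 matched RefSeq, which gave coordinates but neither sequences nor transcript lengths, so the sequence features planned were not analysed here. Counts were tested with edgeR 4.0.16 in R 4.3.3 (filterByExpr, TMM, quasi-likelihood, condition alone, Benjamini-Hochberg over 15744 genes). CPM on a log2 scale used a prior count of 2. Standard errors came from the fold change and its F statistic. Fits were tested on simulated data. DESeq2 1.42.0 and limma 3.58.1 were alternatives.

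The line letter pairs the libraries, since each line was grown in both conditions. Deviations from the condition mean correlated at 0.421 to 0.664 within a line and at -0.523 to 0.249 between lines. Over 12 pairs of libraries of the same condition, chi-square per degree of freedom was at least 40.8, so none was a repeat. Whether a line was cultured more than once is not given. The unpaired P-values set the condition difference against the spread between single cultures of 4 lines. The P-values of the paired fit and of the line terms rest on the spread left after line and condition are fitted.

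The 10 genes and all lists were chosen with earlier results of these data known. Named were all 10, list genes called in either fit, PDK4, SLC16A7, BSG, PDHB, DLAT, PC, ME1, GOT1 and MDH1, and the 5 genes most correlated with LDHA and with PDK1. PKM, EMB and GPT were named after their values were seen.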

Additional observations from a re-analysis of the deposited data

Results flagged for a closer look

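Of 90 groups of 4 libraries examined (each of the 10 genes and the 35 tested list genes in each condition), 3 held a library whose gap to the nearest other exceeded Dixon's 95% limit for 4 values, and chance alone flags about 1 in 20. LDHD, the D-lactate dehydrogenase, was lowest in line A on MEF at a log2 CPM of -2.134, with the other lines between -1.701 and -1.615. PCK2, the mitochondrial enzyme that makes phosphoenolpyruvate, was lowest in line D on MEF at a log2 CPM of 5.086, with the others between 5.316 and 5.357. SLC25A12 was highest in the feeder-free library of line D at a log2 CPM of 4.072, with the others between 3.696 and 3.735. None of the 10 genes was among these.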

How the results depend on the processing

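With RLE size factors, without scaling, with other low-count filters, DESeq2 and limma-voom, 0 of the 10 genes were called in either direction without the pairing. The same held in the fits without any one library. Those fits called 0 to 6 of all genes, or 490 without line A on VTN, so most of them could call almost no gene. DESeq2 gave no adjusted P-value for SLC16A3. With the pairing (replicate block) 1 was called lower (PDK1), and 2 with no fold threshold. That 1 paired call ran from 0 to 1 as each line was left out, with a PDK1 log2 fold change of -1.27 to -0.73. Directions turned in 3 cases, each giving 1 end of the range over left-out libraries: SLC16A3 without line A on MEF (-2.004 to 0.34), PDK2 without line D on MEF (-0.1312 to 0.0264) and SLC16A1 without line D on VTN (-0.0711 to 0.285). LDHA was -0.81 by limma-voom.

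Of the 35 list genes, 1 was called, against 2 by DESeq2, 0 by limma-voom, 2 with the replicate block, 4 with the block and no fold threshold, and 0 to 1 without any one library. Of all genes, 272 were called, against 174 with no scaling, 170 with no filter, 412 with at least 10 counts in every library, 1211 by DESeq2, 1582 with the replicate block, and 2486 with the block and no fold threshold. Without any one library 0 to 6 were called, or 490 without line A on VTN. Of the 10 genes, 3 differed between lines, against 4 with no filter (14.5% of all genes) and 2 to 3 without any one library (2 without line C on MEF or line A, C or D on VTN). The causes were not tested. Among the 10 genes, SLC16A3 had the fewest reads (29 to 306 per library).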
